A study of Mus musculus with 21 samples.

Results

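The comparison set tumours of mice that received lenvatinib together with an antibody against PD-1 (the combination arm, 5 mice) against tumours of mice that received neither agent (the placebo arm, 6 mice), and it asked which genes differ when both agents are given at once. All 11 tumours of these arms were used, of 21 in the series, and the genes were all those named on the array, 19572 of 22206 probe sets that are not controls. Each tumour grew from Hepa1-6 cells, a mouse hepatoma line, placed under the skin of a female C57BL/6J mouse 5 to 6 weeks old, and mice were assigned to arms at random once the tumour measured 200 mm3. Combination mice received lenvatinib by gavage at 10 mg/kg every day and the anti-PD1 antibody (clone J43) into the peritoneum at 10 mg/kg every 3 days for 5 doses. Placebo mice received the vehicle of the drug and a polyclonal IgG, so handling and an injected immunoglobulin were common to both arms. Tumours were taken on day 13, with the final dose of lenvatinib 2 h earlier and that of antibody 1 day earlier, and 1 Clariom S array per mouse was hybridized with RNA from a 30 mg piece. The arms that received lenvatinib alone (5 mice) or anti-PD1 alone (5 mice) entered the estimate of the spread and are given beside the comparison where useful. The model has 1 tumour line, outside the liver, in hosts with their own immune system and skin, muscle and fat beside the tumour.

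Lenvatinib inhibits receptor tyrosine kinases of the VEGF, FGF and PDGF families together with KIT and RET. VEGF receptors on endothelial cells drive the sprouting and upkeep of tumour vessels, and FGF receptors on hepatoma cells can drive growth through MAP kinase signalling. PD-1 is an inhibitory receptor of activated T cells whose ligands PD-L1 and PD-L2 are made by tumour and myeloid cells, and an antibody that blocks it leaves T cells less restrained. Transcript levels do not read whether the protein targets were blocked. Values below are log2 signals, so a difference of 1 is a doubling of signal, and each difference is combination minus placebo ± its standard error from limma (5 against 6 mice, with the spread estimated over all 21 arrays). Signals of different probe sets are not levels that can be set against each other.

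The arrays of the 2 arms were about as alike between arms as within them. The median correlation over probe sets was 0.941 among placebo mice, 0.957 among combination mice and 0.945 between the arms, and no pair of arrays in the series held the same values. The first 3 principal components of the 11 arrays held 32.3%, 22.9% and 11.8% of the variance. Hepatoma genes chosen for this check after their values were seen were present in every tumour at very different levels: the albumin gene Alb ranged from 7.56 to 12.46 and the fetal liver gene Afp from 5.05 to 11.49, both lowest in placebo mice 1 and 6. Skeletal muscle and fat genes also varied widely among the pieces, as described further on. Hybridization controls, which are spiked into every array, were bright (over 11.3, with all others at 10.9 or less) on 6 arrays of the series, including placebo mice 4 and 6 and combination mouse 1. These 6 arrays had narrower signal distributions (interquartile range 2.41 to 2.82, against 3.00 or more), and values without them are given beside many of the results that moved.

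No gene passed the test between the arms. Of 22206 probe sets, 0 passed an adjusted p under 0.05 by limma with Benjamini-Hochberg adjustment, and the smallest adjusted p was 0.602, for Adtrp. Every other gene described here had an adjusted p of 0.9998. Before adjustment, 224 probe sets were higher and 288 lower in the combination at p under 0.05. Counted by gene, 200 of 19505 (1.03%) were higher, 252 (1.29%) were lower and 452 (2.32%) lay in either direction. By chance alone a share of 0.05 would be called at this threshold, more than the 2.32% seen. Without the 6 bright arrays the counts were 896 genes higher (4.59%) and 617 lower (3.16%), again with 0 passing after adjustment and a smallest adjusted p of 0.308. Leaving out combination mouse 1 gave 561 higher (2.88%) and leaving out combination mouse 4 gave 109 (0.559%), so the counts before adjustment depended on single mice.

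The differences were small for most genes and the precision was moderate. The median difference over genes was -0.0026, 49.5% of genes lay above 0, and the middle 95% of genes lay between -0.56 and 0.57. A difference of over 2-fold was seen in 69 genes that were higher and 109 that were lower. The median standard error was 0.242, and for 80.4% of genes the whole 95% interval lay within 1 log2 of 0 in either direction, so a larger than 2-fold difference lay outside the interval for these genes. The median SD among mice was 0.355 in the placebo arm and 0.330 in the combination arm.

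The gene with the smallest p, Adtrp, stood lower in every combination tumour than in any placebo tumour. Adtrp encodes a membrane hydrolase of lipid esters that also regulates an inhibitor of coagulation. Its signal was 8.87, 8.67, 7.24, 7.05, 7.95 and 7.10 in the 6 placebo mice and 6.48, 5.64, 6.24, 5.61 and 4.09 in the 5 combination mice. The difference was -2.20 ± 0.41 (95% interval -3.06 to -1.35), a signal 0.217 times that of placebo, and its adjusted p of 0.602 did not pass. Leaving out any 1 mouse kept the difference between -2.42 and -1.82, and without the bright arrays it was -2.79.

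Reep6, Vnn1, Retsat and Tpmt were also among the 10 lower genes with the smallest p. Reep6, a protein that shapes the endoplasmic reticulum, was 4.68, 5.15, 5.74, 5.19 and 4.13 in combination mice against a placebo median of 6.58 (6.15 to 7.32), a difference of -1.62 ± 0.37. Vnn1, a pantetheinase of the liver and kidney, was 4.20, 4.15, 3.65, 3.68 and 3.41 against 5.05 (4.44 to 5.93), a difference of -1.33 ± 0.31. The arms did not overlap for either gene, and the combination mean of Vnn1 lay under 4.10, the median of the negative-control probe sets, where signals are background. Retsat, the retinol saturase, was 7.43, 7.66, 7.74, 7.46 and 6.97 against 8.29 (7.61 to 9.28), a difference of -0.93 ± 0.27. Tpmt, which methylates thiopurines, was 5.29, 5.33, 5.05, 4.98 and 5.26 against 5.78 (5.51 to 6.22), a difference of -0.66 ± 0.18. Tpmt had no overlap between arms, while combination mice 2 and 3 reached into the placebo range for Retsat.

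The other 5 genes of that group were Tm4sf1, Slc44a3, Sbspon, Stbd1 and Ccdc120. Tm4sf1, a tetraspanin-like protein of endothelial and tumour cells, was 8.18, 8.87, 9.27, 8.95 and 9.07 in combination mice against a placebo median of 9.66 (9.34 to 10.47), a difference of -0.89 ± 0.27 that was -0.54 without the bright arrays. Slc44a3, a choline transporter-like protein, was 6.77, 5.71, 6.90, 5.61 and 4.80 against 7.0 (6.48 to 7.58), a difference of -1.05 ± 0.33. Combination mice 1 and 3 lay inside the placebo range for Slc44a3 and the other 3 below it. Sbspon, a secreted protein with a thrombospondin domain, differed by -0.57 ± 0.17, with signals near background in both arms. Stbd1, a glycogen-binding protein, differed by -0.66 ± 0.21, and Ccdc120, a coiled-coil protein, by -0.80 ± 0.25.

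Among the 10 genes with the smallest p that lay higher, Camk4 and Cd247 are known from T cells and their antigen receptor. Camk4, a calmodulin-dependent kinase, was 5.71, 5.14, 5.50, 5.36 and 4.90 in combination mice against a placebo median of 4.31 (4.11 to 4.98), a difference of 0.92 ± 0.21. Only combination mouse 5 lay within the placebo range, and that narrowly. Cd247, which encodes the zeta signalling chain of that receptor's complex, was 6.29, 6.83, 6.84, 7.88 and 7.42 against 6.23 (6.06 to 6.51), a difference of 0.80 ± 0.24. Here combination mouse 1 lay within the placebo range and the other 4 above it. Ebi3, the chain shared by interleukins 27 and 35, was 5.50, 5.05, 4.66, 4.64 and 4.75 against 4.15 (3.77 to 4.69), a difference of 0.72 ± 0.21.

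B3gnt5 and C6 had the largest differences in that group. B3gnt5, the transferase that starts lacto-series glycolipids, was 4.82, 5.15, 6.76, 8.36 and 4.85 against a placebo median of 4.36 (4.00 to 4.49), a difference of 1.69 ± 0.44. The 2 high values were those of combination mice 3 and 4, and without these mice the difference was 0.64. The SD of B3gnt5 was 1.55 among combination mice and 0.21 among placebo mice. Its standard error and p, which pool the spread over all arms, thus understate its spread in the combination. C6, a component of the complement attack complex, was 6.13, 7.83, 7.59, 7.33 and 7.77 against 5.68 (5.11 to 7.73), a difference of 1.41 ± 0.40. The highest placebo tumour reached the combination range for C6. Tfrc, the transferrin receptor, was 4.17, 5.44, 5.46, 4.71 and 4.44 against 3.77 (3.34 to 4.38), a difference of 1.03 ± 0.30, and its placebo mean lay at background.

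The remaining genes of that group act in the nucleus or have no role stated here. Fam102a was 7.29, 6.85, 6.86, 7.72 and 7.17 against a placebo median of 6.34 (5.46 to 7.02), a difference of 0.90 ± 0.24. Dr1, a repressor of transcription, was 6.19, 6.53, 6.62, 6.50 and 6.73 against 5.90 (5.74 to 6.26), a difference of 0.58 ± 0.16. In both genes the arms met at the edges, with combination mice 2 and 3 (Fam102a) or mouse 1 (Dr1) inside the placebo range. Baz1a, a subunit of a chromatin remodeller, differed by 0.63 ± 0.18, and Arhgap4 by 0.97 ± 0.29.

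**Figure D1:**
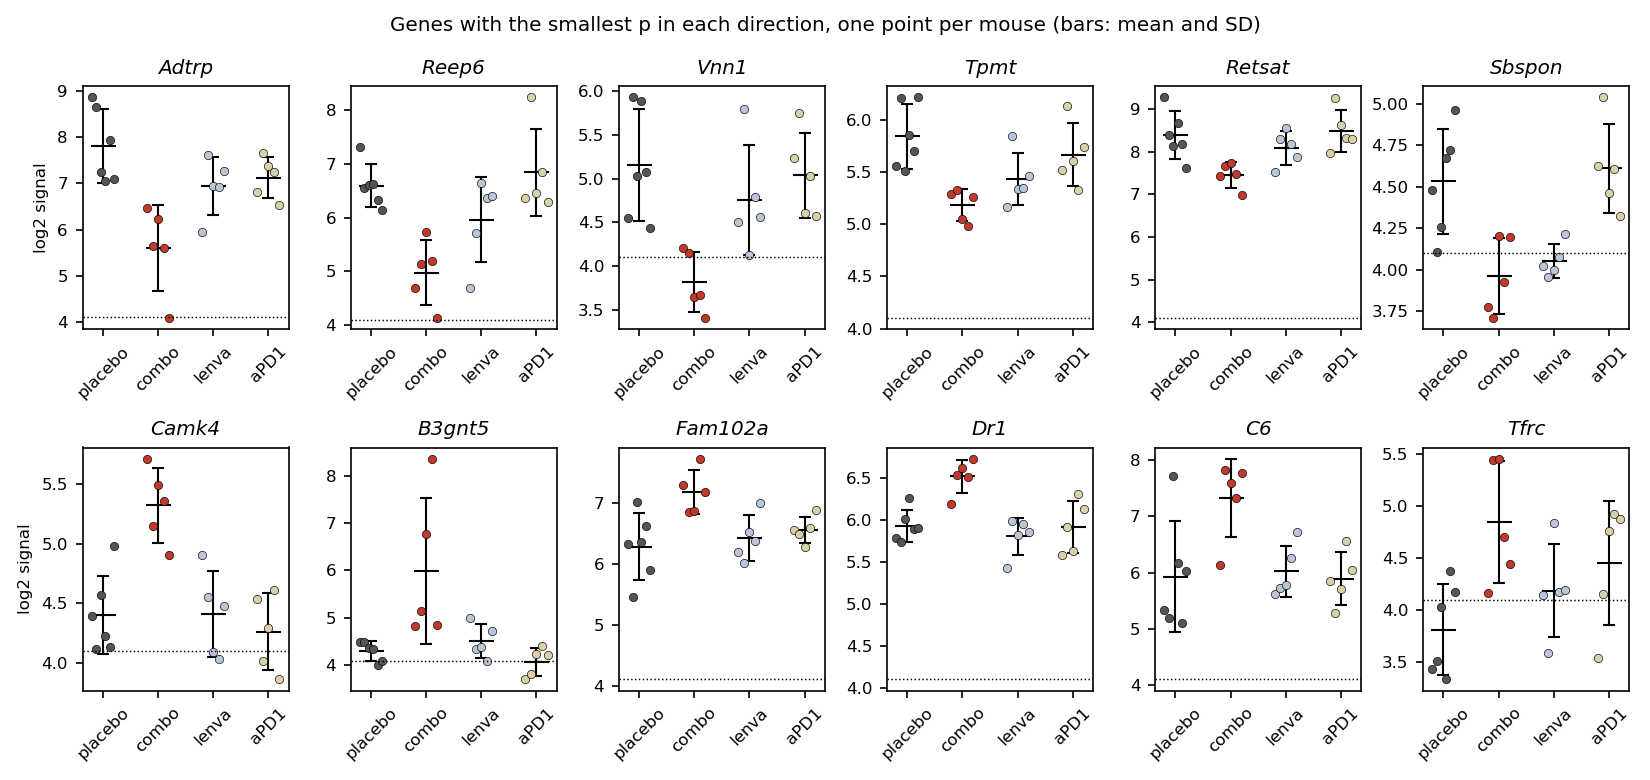
Signal (log2) of the 6 lower and 6 higher genes with the smallest p, with 1 point per mouse in each of the 4 arms, the mean and SD of each arm, and a dotted line at the median of the negative-control probe sets. Adtrp, Reep6 and Vnn1 lie lower in all 5 combination mice than in all 6 placebo mice, while combination mice 3 and 4 carry the 2 high values of B3gnt5.

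In 14 genes (0.0718%) every combination tumour lay above every placebo tumour, and in 35 (0.179%) every one lay below. Without combination mouse 1 they were 193 and 106, and with fewer mice such counts rise by construction. Beyond the genes above, the rule for the widest gaps named Mbd2, Lrrfip1, Gnai3 and Pappa2 as higher and Sctr as lower. Mbd2, which binds methylated DNA, was 9.76, 9.78, 9.87, 9.89 and 9.95 against 9.57 (9.47 to 9.68), a difference of 0.28 ± 0.12. Lrrfip1, a nucleic acid binding protein, was 7.65, 7.51, 7.58, 7.54 and 7.60 against 7.11 (6.71 to 7.43), a difference of 0.47 ± 0.29 that was 0.29 without the bright arrays. Gnai3, an inhibitory G protein subunit, was 8.02, 7.93, 8.34, 7.95 and 7.96 against 7.58 (6.47 to 7.70), a difference of 0.65 ± 0.40. For Gnai3 and Lrrfip1 the combination mice lay close together and the placebo mice spread further. Pappa2, a protease of IGF-binding proteins, was 4.72, 4.32, 4.03, 4.06 and 4.58 against 3.77 (3.37 to 3.90), and Sctr, the secretin receptor, was 3.17, 3.32, 3.36, 3.35 and 3.43 against 3.90 (3.66 to 5.30). Both lay near or under background in both arms.

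The single-agent arms share the placebo mice with this comparison, so their differences are given side by side and not as separate evidence. Adtrp differed from placebo by -0.87 in lenvatinib mice and -0.69 in anti-PD1 mice, beside -2.20 in combination mice. Reep6 differed by -0.63 and 0.25, beside -1.62, and Vnn1 by -0.40 and -0.12, beside -1.33. Tm4sf1 differed by -0.96 with lenvatinib and 0.09 with anti-PD1, beside -0.89. Camk4 differed by 0.01 and -0.14, beside 0.92. Thus Tm4sf1 stood about as low with lenvatinib alone, while Adtrp, Reep6, Vnn1 and Camk4 stood nearer placebo in both single-agent arms. These genes were named for their small p between combination and placebo, which favours that order and the direct differences below, so neither is separate evidence. The combination was also set against each agent directly: Adtrp differed by -1.33 ± 0.43 from lenvatinib (limma adjusted p = 0.78) and by -1.52 ± 0.43 from anti-PD1 (adjusted p = 0.193). Against anti-PD1, Reep6 (-1.87), Camk4 (1.06), Cd247 (1.16) and Slc44a3 (-1.57) each had a limma adjusted p of 0.1235, which did not pass.

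Gene lists were next described by their members. Of 578 genes in 38 lists, 534 were measured, and the other 44, which no named probe set matched, include Foxp3, Pdgfra and Lck. Some lists share members, with 16 genes in more than 1 list. In the combination, 24 lists had a median difference above 0 and 14 below. In 0 lists did the score of all 5 combination tumours lie above, or below, that of all 6 placebo tumours, where a score averages a list's genes, each taken as its deviation from its own mean over 21 mice. The lists with most members at an unadjusted p under 0.05 were the B cell list (10 of 15 higher) and the T cell list (4 of 14 higher), against 1.03% of all genes, and the pericyte and smooth muscle list (4 of 14 lower), against 1.29%. Members of a list vary together in a tissue piece, so these counts are not counts of independent genes, and 0 members of any list passed after adjustment.

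**Figure D2:**
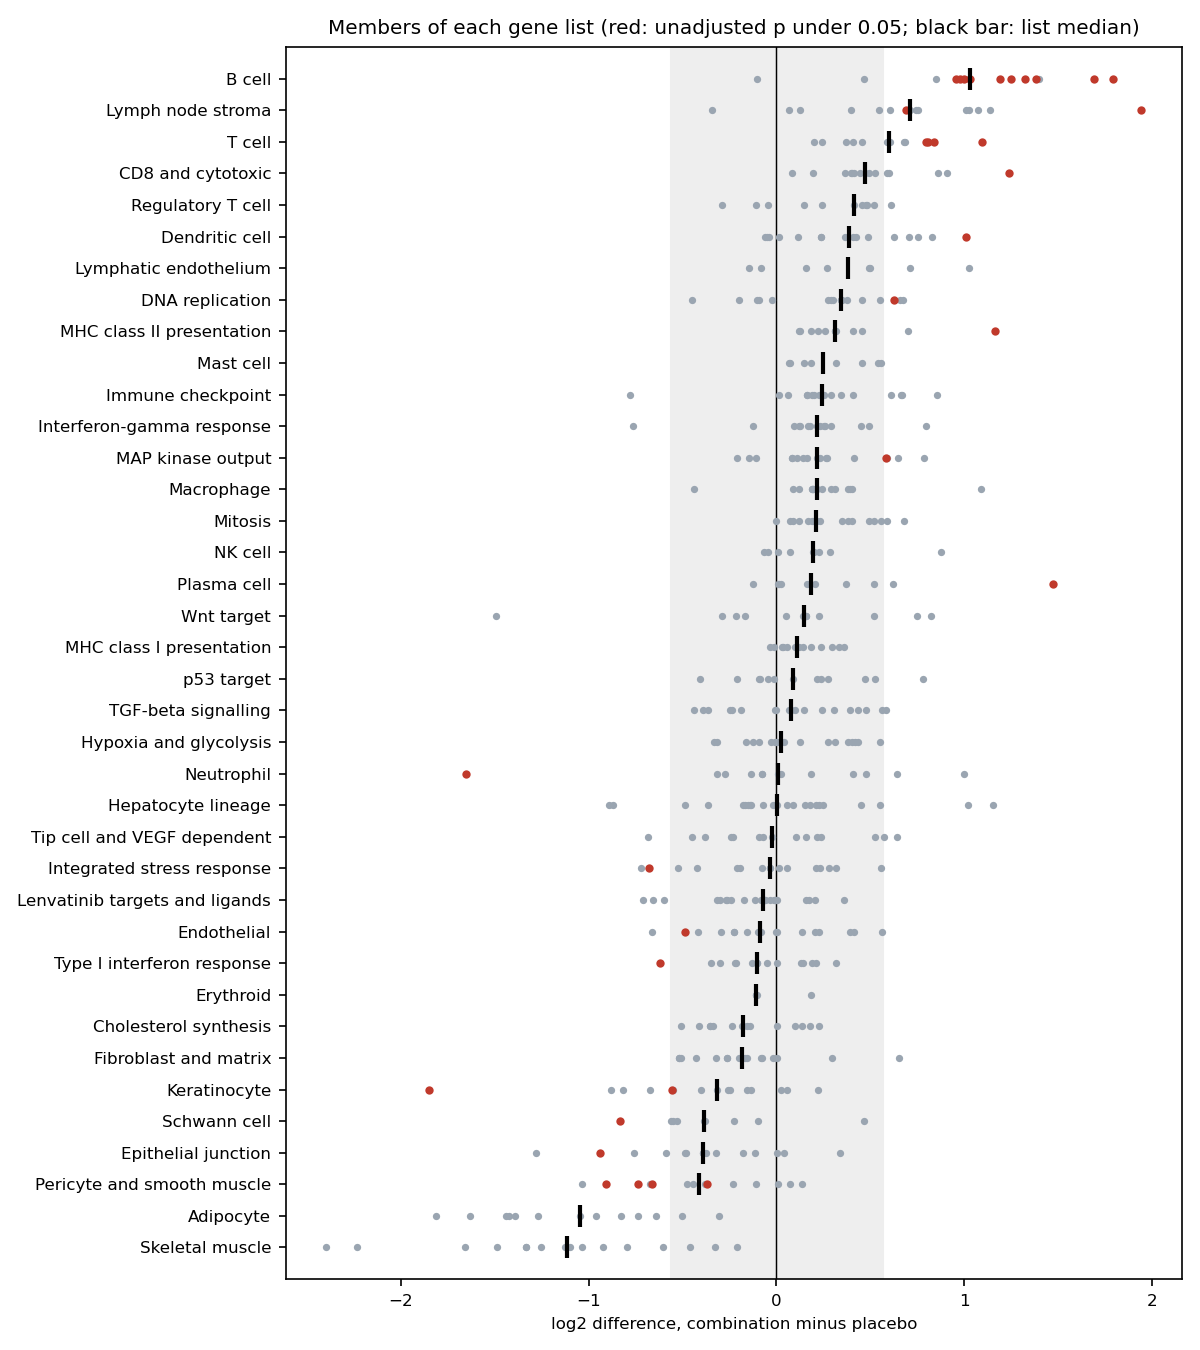
Log2 difference, combination minus placebo, of each member of the 38 lists (points, red at an unadjusted p under 0.05), with the list median as a black bar and a grey band for the middle 95% of all genes, -0.56 to 0.57. The B cell and lymph node stroma medians (1.03 and 0.71) lie above the band, and the muscle and fat medians (-1.11 and -1.05) below it.

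T cell genes stood higher in 4 of the 5 combination tumours and low in the other one. All 14 measured genes of the T cell list lay above 0, with a median of 0.60 and 4 at an unadjusted p under 0.05. The list score was -0.42, 0.89, 0.66, 1.70 and 1.11 in combination mice 1 to 5 and 0.06, -0.15, 0.65, -0.06, 0.23 and 0.39 in placebo mice. Combination mouse 1, whose array was bright, lay below all placebo mice and the other 4 above them. In bulk tissue, a change in the number of cells of a type and a change in RNA per cell cannot be told apart. Sit1, an adaptor that dampens T cell receptor signalling, was 5.01, 6.60, 6.59, 7.74 and 6.94 against a placebo median of 5.33 (4.87 to 6.62), a difference of 1.10 ± 0.38. Cd2, an adhesion receptor of T and NK cells, was 6.70, 7.90, 7.73, 8.77 and 8.03 against 6.97 (6.63 to 7.53), a difference of 0.84 ± 0.30. Lat, the scaffold downstream of the T cell receptor, was 7.38, 8.56, 8.30, 9.68 and 8.74 against 7.67 (7.48 to 7.99), a difference of 0.81 ± 0.32. The order of the mice was the same in each gene at its ends: combination mouse 4 was highest and combination mouse 1 lowest of that arm.

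The T cell result rested in part on 2 mice in opposite directions. Of the 14 genes, 12 were highest in combination mouse 4. Without that mouse the median was 0.38, with 2 genes at an unadjusted p under 0.05 (0.559% of all genes). Without combination mouse 1 it was 0.99, with 9 such genes (2.88% of all genes), and without the 6 bright arrays 0.91, with 7 (4.59% of all genes). Without both combination mice 3 and 4 the median was 0.35 and 12 of 14 genes lay above 0.

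The CD8 and cytotoxic genes lay on the same side. All 15 measured members lay above 0, with a median of 0.47 and 1 at an unadjusted p under 0.05, Cd8a. Cd8a, a chain of the co-receptor of killer T cells, was 5.78, 8.23, 7.63, 8.42 and 7.98 against a placebo median of 6.38 (5.57 to 7.17), a difference of 1.24 ± 0.51 (95% interval 0.18 to 2.29). Its partner Cd8b1 was 8.02, 10.04, 9.64, 10.51 and 9.91 against 8.69 (8.40 to 9.30), a difference of 0.91 ± 0.52. For both chains 4 combination mice lay above the whole placebo range, and mouse 1 lay within it for Cd8a and below it for Cd8b1. Prf1, the pore-forming perforin, differed by 0.59 ± 0.38, and Eomes, a transcription factor of effector T and NK cells, by 0.60 ± 0.31. Without combination mice 3 and 4, Prf1 differed by 0.46 and Eomes by 0.20. The list score was -0.27, 1.10, 0.62, 0.62 and 1.00 in combination mice and at most 0.76 in placebo mice, and its median was 0.49 without combination mice 3 and 4. NK cell genes lay nearer 0: 7 of 9 lay above 0 with a median of 0.20, which was -0.06 without combination mice 3 and 4, and 0 had an unadjusted p under 0.05.

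B cell genes had the largest median of the immune lists, carried mainly by 2 tumours. Of 15 measured genes, 14 lay above 0, the median was 1.03, and 10 had an unadjusted p under 0.05. The list score was -0.44, 0.09, 1.25, 3.29 and 0.14 in combination mice, and -0.64 to 0.08 in placebo mice. Its SD was 1.49 among combination mice and 0.27 among placebo mice. The fit pools the spread over all arms, so the standard errors and p of B cell genes understate their spread in the combination. Scores were at most 0.14 among lenvatinib mice and -0.02 among anti-PD1 mice, so combination mice 3 and 4 stood above the other 19 tumours. In 14 of the 15 genes combination mouse 4 was the highest tumour of the comparison, and in 11 combination mice 3 and 4 were the top 2. Without combination mouse 4 the median was 0.56 with 4 genes at an unadjusted p under 0.05 (0.559% of all genes). Without both mice the median was 0.18 with 0 such genes (0.913% of all genes).

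The values of single B cell genes show the same 2 tumours. Cd79a, a signalling chain of the B cell receptor, was 5.54, 5.76, 7.51, 9.78 and 5.90 in combination mice against a placebo median of 4.93 (4.69 to 5.78), a difference of 1.79 ± 0.56 that was 0.63 without combination mice 3 and 4. Fcrla, an Fc receptor-like protein of B cells, was 4.24, 5.49, 6.30, 8.90 and 5.31 against 4.70 (4.17 to 5.06), a difference of 1.38 ± 0.51. Blk, a kinase of B cell receptor signalling, was 5.60, 5.00, 5.87, 7.85 and 4.90 against 4.89 (4.50 to 5.27), a difference of 0.98 ± 0.35. Cxcr5, the receptor that draws B cells into follicles, was 4.29, 4.58, 4.76, 6.41 and 3.98 against 3.82 (3.58 to 4.18), a difference of 0.95 ± 0.31. Without combination mice 3 and 4, Fcrla, Blk and Cxcr5 differed by 0.35, 0.30 and 0.43. Among plasma cell genes 9 of 10 lay above 0 with a median of 0.19, and the 1 at an unadjusted p under 0.05 was Mzb1, a chaperone of antibody secretion. Mzb1 was 4.73, 7.44, 5.31, 8.28 and 7.41 against 4.84 (4.54 to 6.43), a difference of 1.47 ± 0.56, with combination mice 2, 4 and 5 high, not mouse 3.

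Genes of lymph node stroma and sinuses stood high in the same 2 tumours. Of 15 measured genes, 14 lay above 0 (49.5% of all genes) with a median of 0.71. An unadjusted p under 0.05 was seen in 2, Cxcl13 and Marco (1.03% of all genes higher). The score was 0.88 and 2.16 in combination mice 3 and 4, -0.23, -0.19 and 0.18 in the other 3, and -0.31 to 0.03 in placebo mice. Its SD was 0.997 among combination mice and 0.122 among placebo mice. As for B cell genes, the pooled standard errors and p understate the spread in the combination. Cxcl13, the chemokine of B cell follicles, was 5.44, 4.98, 8.06, 10.09 and 4.76 against 4.43 (3.71 to 6.40), a difference of 1.94 ± 0.81 that was 0.34 without combination mice 3 and 4. Ccl21a, the chemokine of T cell zones and lymphatic vessels, was 6.38, 6.29, 8.36, 10.80 and 6.84 against 6.81 (6.12 to 6.92), a difference of 1.03 ± 0.59 that turned to -0.21 without them. Marco, a scavenger receptor of sinus and marginal zone macrophages, was 5.13, 5.31, 5.63, 7.58 and 5.42 against 5.13 (4.77 to 5.62), a difference of 0.69 ± 0.31 that was 0.25 without mouse 4. Siglec1, the sinus macrophage sialoadhesin, differed by 0.75 ± 0.38 and by 0.27 without both mice. The list median was 0.15 without both mice, with 9 of 15 genes above 0. The B cell genes and these stromal genes thus stood high in the same mice, and the part of lymphoid tissue within the tumour piece, or beside it, in either result was not tested.

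**Figure D3:**
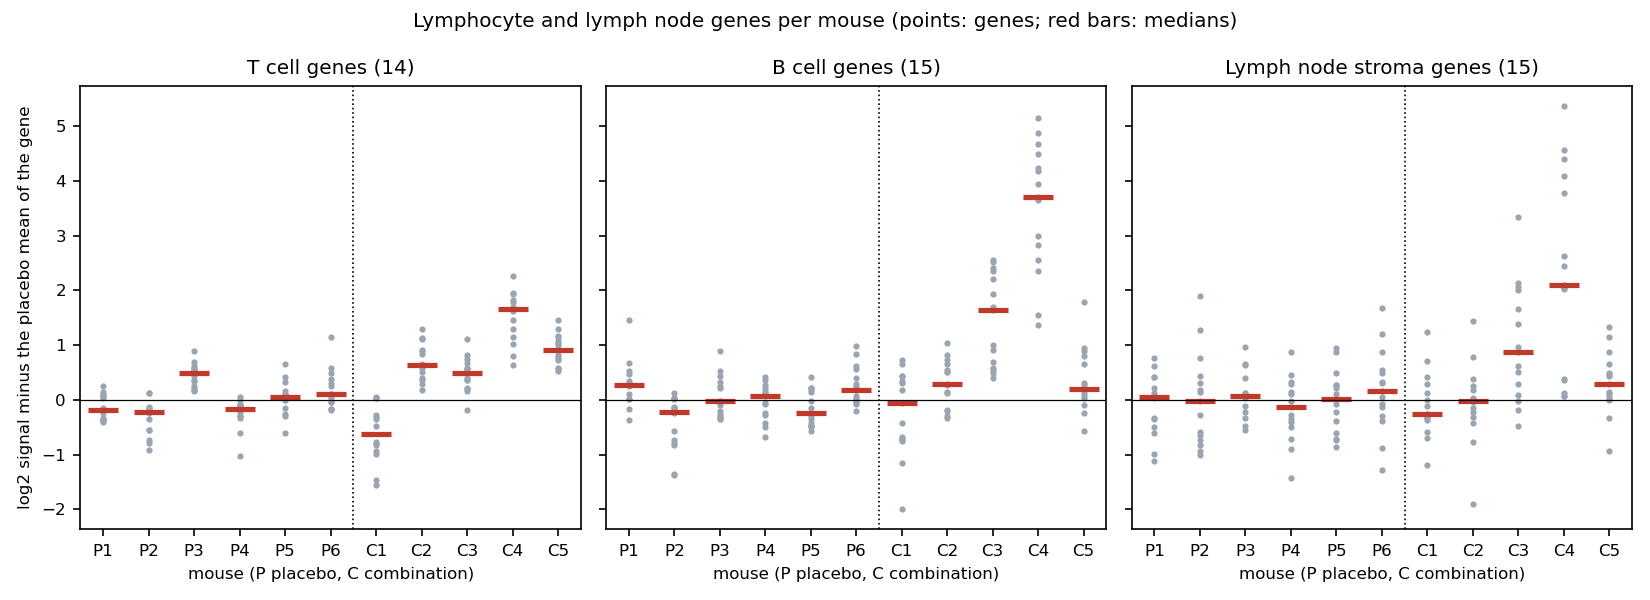
Signal of the 14 T cell, 15 B cell and 15 lymph node stroma genes in each placebo and combination mouse, as log2 minus the gene's placebo mean, with 1 point per gene and a red bar at the median of the mouse. Combination mice 3 and 4 are raised in all 3 panels, combination mice 2 and 5 mainly in the T cell panel, and combination mouse 1 in none.

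Antigen-presenting cells and their genes lay mostly above 0 by smaller amounts. Of 16 dendritic cell genes 13 lay above 0 with a median of 0.38, which was 0.17 without combination mice 3 and 4. Tlr9, the DNA sensor of plasmacytoid dendritic cells and B cells, was 5.03, 5.36, 5.73, 7.49 and 5.94 against a placebo median of 4.92 (3.97 to 5.86), a difference of 1.01 ± 0.43, and was the 1 member at an unadjusted p under 0.05. Irf8, a transcription factor of dendritic and B cells, was 8.07, 7.80, 8.02, 8.0 and 8.06 against 7.23 (6.17 to 8.15), a difference of 0.71 ± 0.35 that was 0.31 without the bright arrays. The 5 combination mice were close together for Irf8 and lay inside the upper part of the placebo range. Xcr1, the chemokine receptor of cross-presenting dendritic cells, differed by 0.62 ± 0.31.

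All 12 measured genes of MHC class II presentation lay above 0, with a median of 0.31 that was 0.08 without combination mice 3 and 4, when 9 of 12 lay above 0. The 1 member at an unadjusted p under 0.05 was H2-Ob, a chain that restrains peptide loading in B cells. H2-Ob was 4.28, 6.38, 7.93, 9.51 and 5.85 against 5.65 (5.11 to 5.98), a difference of 1.17 ± 0.56 that turned to -0.12 without these 2 mice. Among MHC class I presentation genes 12 of 14 lay above 0 with a median of 0.11 and 0 at an unadjusted p under 0.05.

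Macrophage and mast cell genes lay mostly above 0, against 49.5% of all genes, with 0 at an unadjusted p under 0.05. In the macrophage list 15 of 16 genes lay above 0 with a median of 0.21 (0.56 without the bright arrays and 0.039 without combination mouse 5). The score ran from -0.57 in combination mouse 1 to 1.33 in combination mouse 2. The list mean of 0.26 was 0.073 without combination mouse 2. Arg1, an arginase of suppressive macrophages and also of liver cells, was 9.02, 11.26, 10.28, 9.81 and 10.40 against 9.65 (6.45 to 10.49). Its difference of 1.09 ± 0.88 was 0.39 without the bright arrays and 0.57 without placebo mouse 6. Which cells gave the Arg1 signal was not tested. Cd14, the monocyte co-receptor for endotoxin, lay on the other side of 0, at -0.44 ± 0.28. Neutrophil genes were split, 7 of 13 above 0 with a median of 0.01 that was -0.01 under cyclic loess normalization and 0.27 without the bright arrays. The 1 neutrophil gene of 13 at an unadjusted p under 0.05 (1.29% of all genes lower) was Lcn2, the iron-binding lipocalin, at 6.83, 6.68, 7.59, 7.31 and 8.30 against 8.96 (6.45 to 11.15), a difference of -1.65 ± 0.78. Lcn2 differed by -3.45 with lenvatinib alone, and by -0.72 in the combination without the bright arrays. All 8 mast cell genes lay above 0 with a median of 0.25, which was 0.77 without the bright arrays and 0.036 without placebo mouse 3. That mouse scored -1.46 for the list, the lowest of both arms.

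PD-1, its ligands and the other checkpoint genes overlapped widely between the arms. Pdcd1, the gene of PD-1, was 5.04, 7.29, 6.90, 6.37 and 7.59 in combination mice against a placebo median of 6.26 (5.79 to 7.16), a difference of 0.26 ± 0.50. Cd274, the gene of PD-L1, was 9.05, 9.54, 9.27, 8.96 and 9.34 against 8.80 (7.96 to 9.80), a difference of 0.41 ± 0.39 that was 0.20 without the bright arrays. Pdcd1lg2, the gene of PD-L2, was 8.56, 10.46, 9.68, 9.86 and 10.30 against 8.93 (8.06 to 10.45), a difference of 0.66 ± 0.73. None of the 3 had an interval that left out 0. In the immune checkpoint list 15 of 16 genes lay above 0 with a median of 0.24 and 0 at an unadjusted p under 0.05. The exception was Vtcn1, the ligand B7-H4 of tumour and epithelial cells, at -0.78 ± 0.40. Btla, an inhibitory receptor of B and T cells, was 3.77, 4.17, 6.19, 7.48 and 3.80 against 4.12 (3.73 to 5.05), again with combination mice 3 and 4 high, and its difference of 0.86 ± 0.51 turned to -0.31 without them. Tox, a transcription factor of chronically stimulated T cells, differed by 0.67 ± 0.34.

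Regulatory T cell genes other than Foxp3 lay above 0 in 8 of 11 cases with a median of 0.42 and 0 at an unadjusted p under 0.05. Tnfrsf4, the co-stimulatory receptor OX40, differed by 0.52 ± 0.39, and Itgae, an integrin of resident lymphocytes, by 0.45 ± 0.23 with signals at background in both arms. The TGF-beta list, which concerns a cytokine that restrains T cells, had 11 of 19 genes above 0 with a median of 0.08 and 0 at an unadjusted p under 0.05. Tgfb1 itself was 8.65, 8.89, 8.88, 9.19 and 8.91 against 8.40 (7.49 to 9.12), a difference of 0.58 ± 0.37, and Skil, a feedback repressor of the pathway, differed by 0.43 ± 0.31. Without the bright arrays they were 0.29 and 0.13. For Tgfb1 the combination mice lay in the upper part of the placebo range or, in mouse 4, just above it.

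Interferon-gamma genes lay mostly above 0 with all arrays, and type I interferon genes lay on both sides. In the interferon-gamma list 13 of 15 genes lay above 0 with a median of 0.22, 0 had an unadjusted p under 0.05, and the median was -0.12 without the bright arrays. Gbp2, a GTPase induced by interferon-gamma, differed by 0.80 ± 0.67 (0.049 without the bright arrays and 0.38 with the muscle and fat scores as covariates), while Cxcl11, a chemokine of the same pathway, differed by -0.76 ± 0.39. In the type I interferon list 6 of 15 genes lay above 0 (49.5% of all genes) with a median of -0.10. That median was 0.0053 without combination mouse 4 and 0.079 without placebo mouse 2. Rtp4, an interferon-induced chaperone and the 1 member at an unadjusted p under 0.05, was 5.48, 5.84, 6.02, 5.87 and 5.63 against 6.37 (5.91 to 6.87), a difference of -0.62 ± 0.25. Combination mouse 3 was the one that lay inside the placebo range for Rtp4.

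Transcripts of the receptors that lenvatinib inhibits had differences whose 95% intervals all included 0. Kdr, the main VEGF receptor of endothelium, was 4.66, 5.91, 6.79, 7.85 and 5.88 in combination mice against a placebo median of 6.22 (4.61 to 7.90), and its difference had a 95% interval of -1.28 to 1.28. The sign of the Kdr difference changed under several settings given in the closing section. Flt1, a second VEGF receptor that also traps ligand, was 7.02, 7.35, 7.43, 7.35 and 7.21 against 7.0 (6.17 to 8.11), a difference of 0.21 ± 0.41 that was -0.11 without the bright arrays. Flt4, the VEGF receptor of lymphatic vessels, differed by 0.16 ± 0.30, and by -0.23 without the bright arrays. The combination tumours were nearly level for Flt1 and spread over the whole placebo range for Kdr.

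Among FGF receptors, Fgfr1 was 6.92, 7.73, 8.19, 7.06 and 7.61 against a placebo median of 8.17 (7.37 to 8.72), a difference of -0.60 ± 0.34 beside -0.61 with lenvatinib alone. Fgfr2 was 5.57, 5.74, 5.50, 5.42 and 5.10 against 6.08 (5.21 to 7.19), a difference of -0.71 ± 0.56. With the muscle and fat scores as covariates Fgfr1 was -0.34 and Fgfr2 -0.22. Both lay on the low side of placebo without leaving its range in most mice. Fgfr4, the FGF receptor of hepatocytes, was 7.88, 5.55, 6.37, 5.86 and 5.35 against 6.12 (4.63 to 7.65), a difference of -0.01 ± 0.66 that was 0.05 without combination mice 3 and 4, -0.97 without the bright arrays, -0.64 with the muscle and fat covariates and -0.55 with array weights. Fgfr3 differed by -0.12 ± 0.18 (0.01 without those 2 mice), Kit, the stem cell factor receptor, by -0.27 ± 0.81, and Ret by 0.17 ± 0.16. Over all 22 measured targets and ligands 17 lay below 0 with a median of -0.07 and 0 at an unadjusted p under 0.05.

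**Figure D4:**
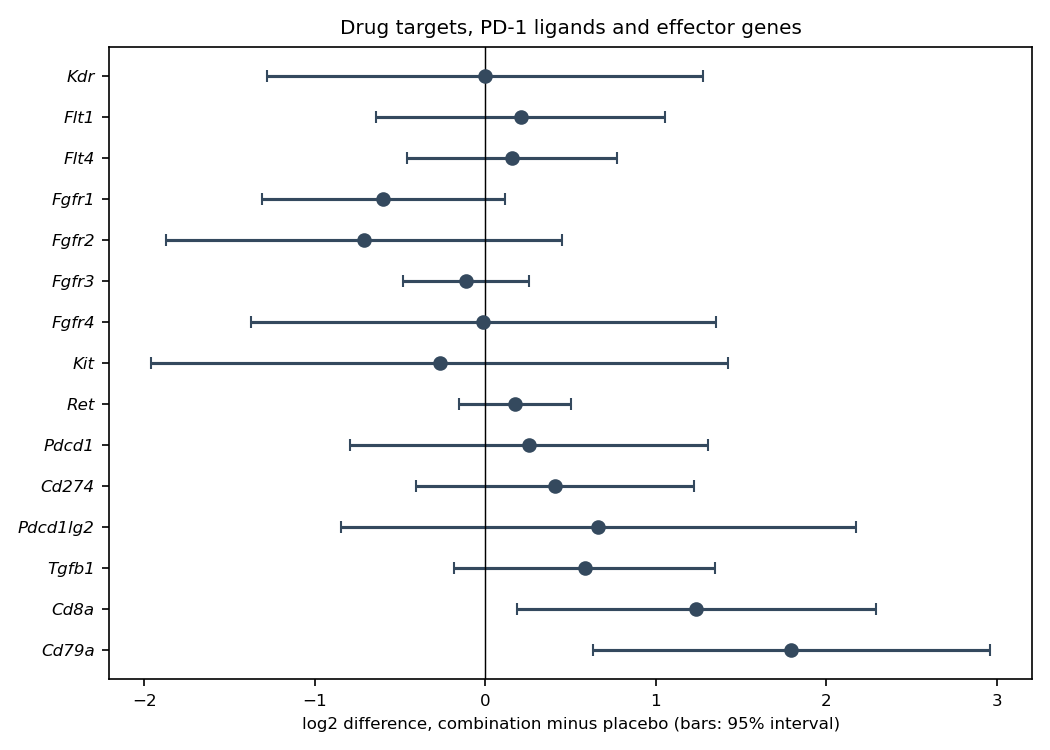
Log2 difference, combination minus placebo, of the receptors that lenvatinib inhibits, of PD-1, its ligands and Tgfb1, and of Cd8a and Cd79a, each with its 95% interval. The intervals of Kdr (-1.28 to 1.28) and the other receptors include 0, and those of Cd8a (0.18 to 2.29) and Cd79a do not, before any adjustment over genes. Intervals use a spread pooled over all arms, while B cell genes such as Cd79a varied more among combination mice than among placebo mice.

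Most vessel wall genes lay below 0. In the pericyte and smooth muscle list 11 of 14 genes lay below 0, the median was -0.41, and 4 had an unadjusted p under 0.05: Mcam, Cspg4, Tagln and Notch3. Mcam, an adhesion protein of pericytes and endothelium, was 5.65, 5.88, 6.69, 5.99 and 5.70 against a placebo median of 6.96 (6.03 to 7.48), a difference of -0.91 ± 0.34. Cspg4, the pericyte proteoglycan NG2, was 6.75, 6.05, 6.41, 5.89 and 5.96 against 6.76 (6.40 to 7.54), a difference of -0.66 ± 0.25. Tagln, the smooth muscle protein transgelin, was 8.25, 8.56, 8.58, 8.58 and 8.34 against 9.07 (8.68 to 9.84), a difference of -0.74 ± 0.32. Tagln was the one of these whose arms did not overlap. Notch3, a receptor that maintains mural cells, was 5.14, 5.60, 5.58, 6.03 and 5.75 against 5.97 (5.55 to 6.33), a difference of -0.37 ± 0.18.

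Beside these values, Mcam and Tagln differed by -0.96 and -0.93 with lenvatinib alone and by 0.59 and -0.51 with anti-PD1 alone, while Cspg4 differed by -0.07 and 0.09. The pericyte list score was -0.91, 0.21, 0.02, -0.08 and -0.29 in combination mice and 0.92, -0.14, 0.25, 0.08, 0.16 and -0.05 in placebo mice, so that combination mouse 1 and placebo mouse 1 were the extremes. The list median was -0.20 without combination mouse 1 and -0.31 without the bright arrays, each time with 2 genes at an unadjusted p under 0.05 (1.55% and 3.16% of all genes lower). With the muscle and fat scores as covariates the median was -0.28, with 2 such genes (1.43% of all genes lower), and Tagln was -0.46. The part of muscle and fat in the pieces in this result was not tested beyond these values.

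Endothelial genes were split, with 7 of 18 above 0 and a median of -0.09 that was 0.09 without placebo mouse 1 and 0.05 without combination mouse 1. The 1 endothelial gene at an unadjusted p under 0.05 was Nos3, the nitric oxide synthase of vessels, with signals of 4.35, 4.13, 4.71, 4.15 and 4.83 against 4.75 (4.53 to 5.61), a difference of -0.49 ± 0.23. Tip cell genes, which depend on VEGF signalling in sprouting vessels, lay above 0 in 7 of 15 cases with a median of -0.03, a mean of the opposite sign, and 0 at an unadjusted p under 0.05. Plvap, the diaphragm protein of fenestrated vessels and a member of that list, differed by 0.57 ± 0.33. The Plvap difference was 0.22 without combination mice 3 and 4 and 0.27 without the bright arrays. Lymphatic endothelial genes lay above 0 in 6 of 8 cases with a median of 0.38, highest in combination mouse 4 (score 1.29) and at a median of 0.08 without combination mice 3 and 4. Ccl21a and Lyve1 of this list are also in the lymph node stroma list, so these lists are not separate evidence.

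Feedback inhibitors and transcription factors induced by MAP kinase signalling lay above 0 in 14 of 17 cases with a median of 0.21, which was -0.31 without the bright arrays and -0.04 with the muscle and fat scores as covariates. Spred1, an inhibitor of this pathway, was 6.80, 6.89, 7.20, 6.45 and 6.25 against a placebo median of 6.25 (5.76 to 6.38), a difference of 0.58 ± 0.21, and was the 1 member at an unadjusted p under 0.05. It differed by 0.72 with lenvatinib alone and 0.51 with anti-PD1 alone. Dusp5, a phosphatase of ERK, differed by 0.65 ± 0.37, and by 0.12 without the bright arrays and 0.30 with those covariates.

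Genes of the hepatoma cells themselves varied widely among tumours of both arms. In the hepatocyte lineage list 12 of 23 genes lay above 0 with a median of 0.0033 (-0.40 without the bright arrays) and 0 at an unadjusted p under 0.05. Gpc3, a proteoglycan made by fetal liver and hepatoma cells, was 7.29, 5.93, 6.38, 5.46 and 5.87 against 7.16 (6.36 to 7.96), a difference of -0.89 ± 0.44 that was -1.52 without the bright arrays. Rbp4, the retinol carrier of plasma, was 12.29, 10.96, 11.96, 11.19 and 9.74 against 11.72 (11.03 to 12.48), a difference of -0.49 ± 0.34 that was -0.11 without combination mouse 5 and -0.91 without the bright arrays. Alb, above, lay at 1.02 ± 0.88 and Afp at 1.15 ± 1.32, so hepatoma markers stood on both sides of 0. Wnt target genes lay above 0 in 8 of 12 cases with a median of 0.15, which was -0.54 without the bright arrays, and 0 had an unadjusted p under 0.05.

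Cell division genes lay above 0 with all arrays and mostly below 0 without the bright ones. In the mitosis list 19 of 19 genes lay above 0, the lowest at 0.00, with a median of 0.21 and 0 at an unadjusted p under 0.05. The score was -1.53, 0.71, 0.18, -1.54, 0.69 and -1.24 in placebo mice and 0.34, -0.58, 0.23, 0.19 and -0.95 in combination mice, so 3 placebo tumours lay below all the others. Of these, placebo mice 4 and 6 had bright arrays. Without the bright arrays, which include combination mouse 1, the highest of its arm, the median was -0.35 and 17 of 19 genes lay below 0. Leaving out any 1 mouse kept it above 0. With the muscle and fat scores as covariates it was -0.17 and 16 of 19 lay below 0. Ube2c, a ubiquitin enzyme of mitotic exit, differed by 0.52 ± 0.61, and by -0.38 without the bright arrays. DNA replication genes lay above 0 in 12 of 17 cases with a median of 0.34, which was -0.08 without the bright arrays. Rrm2, the ribonucleotide reductase subunit and the 1 member at an unadjusted p under 0.05, was 6.14, 4.90, 5.10, 5.45 and 5.08 against 4.80 (4.03 to 5.09), a difference of 0.63 ± 0.28.

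Stress and metabolic lists had medians between -0.18 and 0.09. The integrated stress response list had 7 of 16 genes above 0 with a median of -0.04, but without the bright arrays 13 of 16 lay below 0 with a median of -0.37 and 3 at an unadjusted p under 0.05 (3.16% of all genes lower). Its 1 member at an unadjusted p under 0.05, the asparagine synthetase Asns, was 9.15, 8.69, 9.11, 8.02 and 7.62 against 9.14 (8.60 to 9.83), a difference of -0.68 ± 0.27 (-1.12 without the bright arrays), and the serine synthesis enzyme Psph differed by -0.42 ± 0.21. Of the combination tumours, mice 4 and 5 lay below the placebo range for Asns. Cholesterol synthesis genes lay above 0 in 5 of 15 cases with a median of -0.18, among them the squalene synthase Fdft1 at -0.51 ± 0.27. The p53 targets lay above 0 in 7 of 13 cases with a median of 0.09, among them Mdm2, the ligase that degrades p53, at 0.53 ± 0.26. Hypoxia and glycolysis genes lay above 0 in 10 of 18 cases with a median of 0.03, but without the bright arrays 14 of 18 lay below 0 with a median of -0.24 and 3 at an unadjusted p under 0.05. Fibroblast and matrix genes lay above 0 in 3 of 17 cases with a median of -0.18, which was 0.08 without the bright arrays, among them the collagen chain Col5a1 at -0.52 ± 0.31. With all arrays, 0 genes of the last 4 lists had an unadjusted p under 0.05.

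Genes of tissues beside the tumour differed among the pieces and are given because they could enter the other values. Skeletal muscle genes scored 3.82, -1.37, 1.18, -1.36, 3.77 and -1.29 in placebo mice and -1.22, 4.56, -1.73, -1.73 and -1.63 in combination mice. High muscle signal thus stood in placebo mice 1 and 5 and combination mouse 2. All 16 genes lay below 0 with a median of -1.11, which was -0.21 without combination mice 3 and 4, -2.44 without combination mouse 2, -0.43 without placebo mouse 5, -0.45 without placebo mouse 1 and -1.99 without the bright arrays, and the fast fibre light chain Myl1 differed by -1.66 ± 1.28. Fat cell genes scored 2.49, -1.53, 0.33, 2.01, -0.49 and 1.83 in placebo mice and -2.32, 0.55, 0.90, 0.03 and -0.67 in combination mice. All 13 lay below 0 with a median of -1.05, but 8 of 13 lay above 0 without the bright arrays, with a median of 0.11. The fat hormone gene Retn was 4.05, 9.76, 10.29, 9.12 and 8.30 against 10.70 (7.03 to 11.85), a difference of -1.81 ± 1.35 that was 0.11 without those arrays. Neither list had a gene at an unadjusted p under 0.05.

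Epithelial genes stood low in 4 of the 5 combination tumours. In the keratinocyte list 12 of 15 genes lay below 0 with a median of -0.32. Of these, 2, Krt14 and Krt1, had an unadjusted p under 0.05 (1.29% of all genes lower). Krt14, a keratin of basal epidermis, was 5.00, 4.48, 6.54, 5.55 and 5.22 against 7.40 (6.12 to 7.74), a difference of -1.85 ± 0.59 beside -1.51 with lenvatinib alone and -0.30 with anti-PD1 alone. Krt1 differed by -0.56 ± 0.23 with signals at background in both arms. In the epithelial junction list, genes of adhesion and polarity, 12 of 15 lay below 0 with a median of -0.39, and Epcam was the 1 member at an unadjusted p under 0.05. Epcam, an adhesion protein of epithelial and hepatic progenitor cells, was 5.72, 5.54, 6.56, 5.42 and 5.68 against 6.88 (5.76 to 7.34), a difference of -0.94 ± 0.34 beside -0.62 with lenvatinib alone and 0.23 with anti-PD1 alone. For both Krt14 and Epcam combination mouse 3 alone lay inside the placebo range. The junction list score was -0.33, -0.53, 0.23, -0.46 and -0.56 in combination mice and -0.06 to 0.25 in placebo mice. The medians of the 2 lists were -0.37 and -0.51 without the bright arrays. Whether the skin held in each piece has a part in these values was not tested.

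Peripheral nerve genes lay below 0 in 8 of 9 cases with a median of -0.39, which was -0.22 without the bright arrays and -0.17 with the muscle and fat scores as covariates. The score was highest in placebo mouse 1 (0.64), which also scored high for muscle and fat, and 3 of the 9 were at background in both arms. Mbp, the myelin basic protein, was 3.53, 4.24, 4.11, 4.04 and 4.65 against a placebo median of 4.81 (4.58 to 5.92), a difference of -0.84 ± 0.27, and was the 1 member at an unadjusted p under 0.05. Its combination values lay around background, with only mouse 5 inside the placebo range. Of 4 erythroid genes 1 lay above 0 with a median of -0.11.

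**Figure D5:**
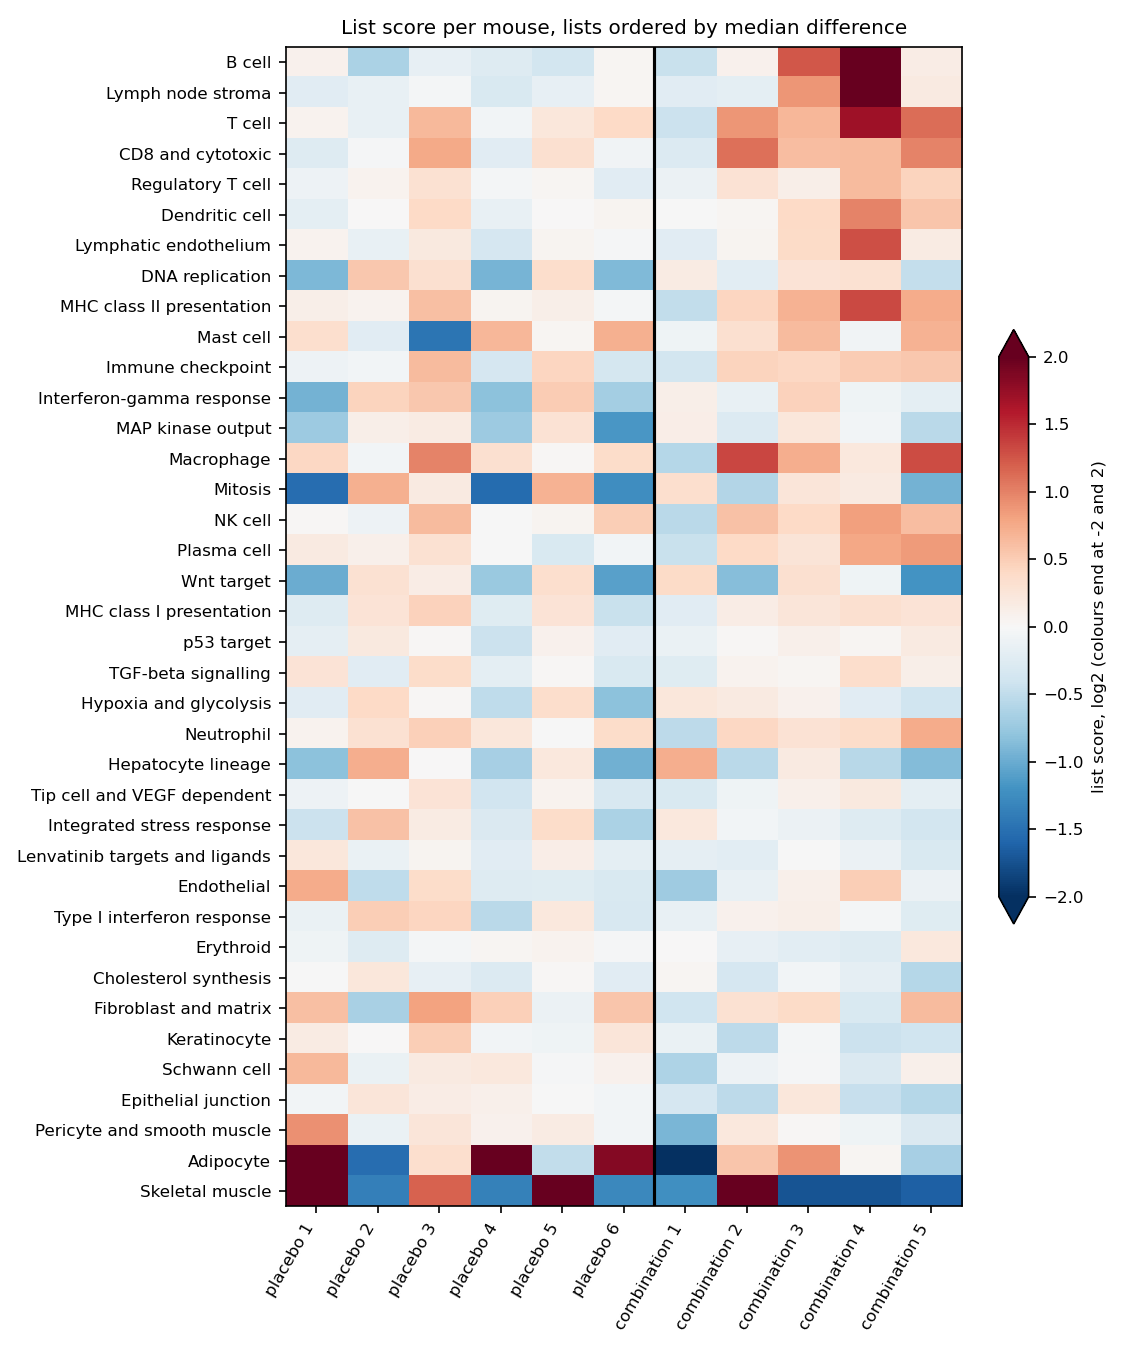
List score (mean deviation of a list's genes from their own means over 21 mice, log2) for each placebo and combination mouse (columns) and each list (rows), with colours that end at -2 and 2. Combination mice 3 and 4 stand out in the B cell and lymph node stroma rows, and the muscle and fat rows vary from mouse to mouse in both arms.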

How the data were processed

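Values were the deposited log2 signals of 21 Clariom S arrays, which the authors made by RMA and oligo (per the submitters' processing notes, without versions). RMA quantile-normalizes arrays together and so takes out a shift common to most genes. For build and annotation, nothing is given in the sources used here. Of 29129 rows, 6923 controls were left out. The other 22206 probe sets were tested, 19572 with 1 symbol (updated through gene identifiers), 0 with several and 2634 unnamed here, and 19505 genes were each read by their brightest probe set. No dim probe set was removed, and 5222 negative controls (median 4.10) mark background. Precision is limited by the number of arrays. Mice are separate animals.

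The fit was limma 3.58.1 in R 4.3.3 (lmFit, eBayes), 4 group means over 21 arrays, two-sided, with a Benjamini-Hochberg adjusted p under 0.05 over all probe sets as the threshold, and it was tested on simulated data. Scores and counts used Python 3.11.15. The genes named were the 10 in each direction with the smallest p and up to 5 with the widest gap between arms, above background in 1 arm and without provisional names. To these came the drug targets and a short panel, and, from each list, up to 4 members ranked by p. Members and lists were chosen with earlier results of these data known. Alternatives were a filter on dim probe sets, trend and robust settings, cyclic loess, array weights, a fit of 11 arrays, named probe sets only, the mouse number as a replicate block, 2 sets of covariates (the hybridization controls; the muscle and fat scores), leaving out the 6 bright arrays, leaving out combination mice 3 and 4, and leaving out each mouse.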

Additional observations from a re-analysis of the deposited data

Results flagged for a closer look

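Within the arms, 126 sets of values (named genes and list scores) were checked for a mouse far from the rest, by Dixon's ratio of the gap to the nearest mouse over the whole range, and 8 exceeded the 95% critical value, where chance gives about 1 in 20. Among placebo mice the ratio was 0.742 for the MHC class II score (mouse 3 high, at 0.61), 0.634 for the pericyte score (mouse 1 high, at 0.92), 0.707 for Sctr (mouse 1 high, at 5.30) and 0.699 for Gnai3 (mouse 4 low, at 6.47). Among combination mice it was 0.866 for the immune checkpoint score (mouse 1 low, at -0.37), 0.919 for the skeletal muscle score (mouse 2 high, at 4.56), 0.711 for the epithelial junction score (mouse 3 high, at 0.23) and 0.771 for Gnai3 (mouse 3 high, at 8.34).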

How the results depend on the processing

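At an adjusted p under 0.05, 0 probe sets passed under any alternative, and 0 passed an adjusted p under 0.1 in the fit reported. The smallest adjusted p was 0.0676 with array weights, 0.418 with the filter, 0.579 with trend and robust settings, 0.455 with cyclic loess, 0.9997 in the fit of 11 arrays, 0.531 over named probe sets, 0.355 with the hybridization control signal as a covariate, 0.308 without the bright arrays, 0.99 with muscle and fat scores as covariates, 0.9999 without combination mice 3 and 4, and 0.343 to 1 when a mouse was left out. Genes higher at an unadjusted p under 0.05 (200) numbered 127, 305, 621, 420, 896 and 304 with the filter, loess, array weights, the control covariate, no bright arrays and the muscle and fat covariates, and 109 (without combination mouse 4) to 561 (without combination mouse 1) with a mouse left out. Genes lower (252) numbered 152, 505, 390 and 617 with the filter, array weights, the control covariate and no bright arrays, and 181 to 362 with a mouse left out. Genes whose arms did not overlap (14 higher, 35 lower) numbered 8 and 23 with the filter, 421 and 291 without the bright arrays and 128 and 130 without combination mice 3 and 4. They numbered 30 higher with loess, and 27 to 193 higher and 46 to 106 lower with a mouse left out, where fewer mice alone raise such counts.

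Of 93 genes, 82 kept their sign under every alternative and 11 did not, and the mean of 21 of 38 lists kept its sign while 17 did not. Most of these genes were named for a small p in this comparison, which favours a kept sign. The trend and robust settings and the fit of 11 arrays leave each difference as it was, so they could not change a sign. The replicate block gives the differences found without placebo mouse 6, so for signs it adds nothing to leaving out that mouse. The Kdr difference was 0.0024 with loess, 0.27 with array weights, 0.15 with the replicate block, 0.51 without the bright arrays and 0.48 with the muscle and fat covariates. Without the bright arrays Flt1 was -0.11, Flt4 -0.23, Ube2c -0.38, Retn 0.11, the MAP kinase list median -0.31 and the Wnt target list median -0.54. Flt4 was -0.11 with array weights and -0.071 with the muscle and fat covariates. Without combination mice 3 and 4 Fgfr3 was 0.012, Fgfr4 0.046, Ccl21a -0.21, Btla -0.31 and H2-Ob -0.12. With a mouse left out, Fgfr4 ranged from -0.43 to 0.28, Flt4 from -0.010 to 0.32, Kdr from -0.41 to 0.39, Kit from -0.59 to 0.090, the neutrophil median from -0.19 to 0.36 and the regulatory T cell median from 0.17 to 0.48. The cause of these shifts was not tested.

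Mouse numbers are shared between arms, but same-numbered mice did not deviate together (correlations of -0.47, -0.34, 0.24, -0.14 and -0.35), so the numbers do not pair the mice. With the number as a replicate block 0 probe sets passed, the smallest adjusted p was 0.16, and 255 genes were higher and 230 lower at an unadjusted p under 0.05. Number 6 is held by a placebo mouse alone, so the differences of this fit are those without placebo mouse 6. The Vnn1 difference, for example, was -1.48 in both. The block changes the estimate of the spread and is no separate check on the differences.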
